A study of Mus musculus with 9 samples.

Results

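Proteasome genes were followed across adult age in microglia, the macrophages that live in brain tissue. The genes were taken by symbol: every gene of the deposited table named Psma, Psmb, Psmc or Psmd followed by a number, without Psmb8 and Psmb9, that had a log2-scale value of at least 3.32 in 3 or more libraries. This gave 35 of the 22036 genes in the table, and of 14956 that passed the same filter on low values. No gene with such a symbol was removed by the filter. The lowest value of any of the 35 genes in any library was 7.29, for Psmd3, so the members lay far from the threshold. The set holds 15 genes of the core particle (8 Psma and 7 Psmb) and 20 of the regulatory particle (6 Psmc and 14 Psmd). Psmb10, an immunoproteasome gene whose symbol fits the pattern, was not analysed here. The name constitutive is loose for 4 members that the symbols bring in: Psma8 is known as the alpha subunit of testis proteasomes, and Psmd5, Psmd9 and Psmd10 are known as assembly chaperones that leave the finished particle.

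RNA was sequenced from microglia sorted by flow cytometry from the brains of wild-type female C57BL/6 mice at 3 ages: young (6 months), middle-aged (15 months) and old (23 months). There were 3 libraries per age, made from RNA of 3 mice each that was pooled, so the error terms measure differences among pools of animals. The mice carried no transgene or treatment according to the labels, and the gate used for sorting is not stated there. Values are log2-scale normalized values, and read depth is unknown. How the authors transformed them is not stated, so 1 unit need not be an exact doubling of RNA.

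The proteasome is the protease complex that degrades proteins tagged with ubiquitin. Its core particle is a barrel of stacked rings. Alpha subunits, encoded by Psma genes, form the outer rings and gate the entry, and beta subunits, encoded by Psmb genes, form the inner rings that hold the proteolytic sites. The regulatory particle caps the barrel: a ring of ATPases encoded by Psmc genes unfolds the substrate, and the non-ATPase subunits encoded by Psmd genes bind ubiquitin, remove the chains and hold the cap together. The subunits assemble in fixed proportions, and their genes are known to be transcribed together, with the factor NRF1 (gene Nfe2l1) raising many of them when proteasome activity is short. In macrophages and microglia, interferon signals replace the catalytic core subunits by those of the immunoproteasome.

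The libraries had these general properties. Of 14 microglia markers, 11 were tested, and their summed log2-scale level ran from 20.905 to 21.102 in young, 20.663 to 20.860 in middle-aged and 20.618 to 20.825 in old libraries. For the 11 border macrophage markers the ranges were 17.020 to 17.113, 16.540 to 16.852 and 16.425 to 16.776. The 12 neutrophil markers lay from 18.044 to 18.935, 18.754 to 19.941 and 17.749 to 18.932, and the 10 monocyte markers from 15.780 to 16.076, 15.822 to 16.582 and 15.845 to 16.348. At adjusted p under 0.05 in old against young, limma called 2 of 11 microglia, 2 of 10 monocyte, 1 of 11 border macrophage and 0 of 12 neutrophil markers. It also called 1 of 10 T and NK cell and 1 of 6 endothelial markers, beside 2.00% of all genes tested. The median differences were -0.20 for microglia, 0.26 for monocyte, -0.46 for border macrophage and -0.032 for neutrophil markers. They were 0.18 for T and NK cell and 0.080 for endothelial markers. Of 7 neuronal markers 4 were tested, with summed levels of 8.519 to 8.611 in young, 8.438 to 8.713 in middle-aged and 8.404 to 8.502 in old libraries. The neuronal markers Rbfox3, Slc17a7 and Gad1 were below the filter. Old replicate 3 had the highest mean deviation of core genes of all 9 libraries and the steepest trend on transcript length. The core median, the counts above 0 in both classes and the core members that move most are therefore also given without it.

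Proteasome genes were expressed well above the typical gene. The median level over the 9 libraries was 12.15 for the 35 genes and 9.33 for all genes tested. Levels of different genes can be compared only per transcript length, so log2 of the length in kb was subtracted. On that log2 scale per kb, the family medians were 11.37 for Psma, 12.46 for Psmb, 12.53 for Psmc and 10.98 for Psmd, and the median of all genes tested was 7.88. The ATPase genes were the most even family, from 11.26 for Psmc6 to 12.70 for Psmc4.

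Within the core, per kb, the highest gene was Psmb6, which encodes the subunit with caspase-like activity, at 13.82, followed by the alpha subunit gene Psma7 at 13.35. The lowest Psmb gene was Psmb4 at 9.48, and the lowest core gene was Psma8 at 7.99. Psmb5, which encodes the subunit with chymotrypsin-like activity, had 9.91 per kb, and Psmb7, for the trypsin-like activity, had 11.01, so the 3 catalytic genes did not share a level. In the regulatory particle Psmd14, which encodes the deubiquitinase of the cap, was the highest Psmd gene at 11.76, and Psmd3, for a lid subunit, was the lowest at 6.34. Subunits that stand in equal number in the particle had transcript levels that differed by several log2 units in these values. How evenly the library kit captured each transcript was not tested.

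**Figure D1:**
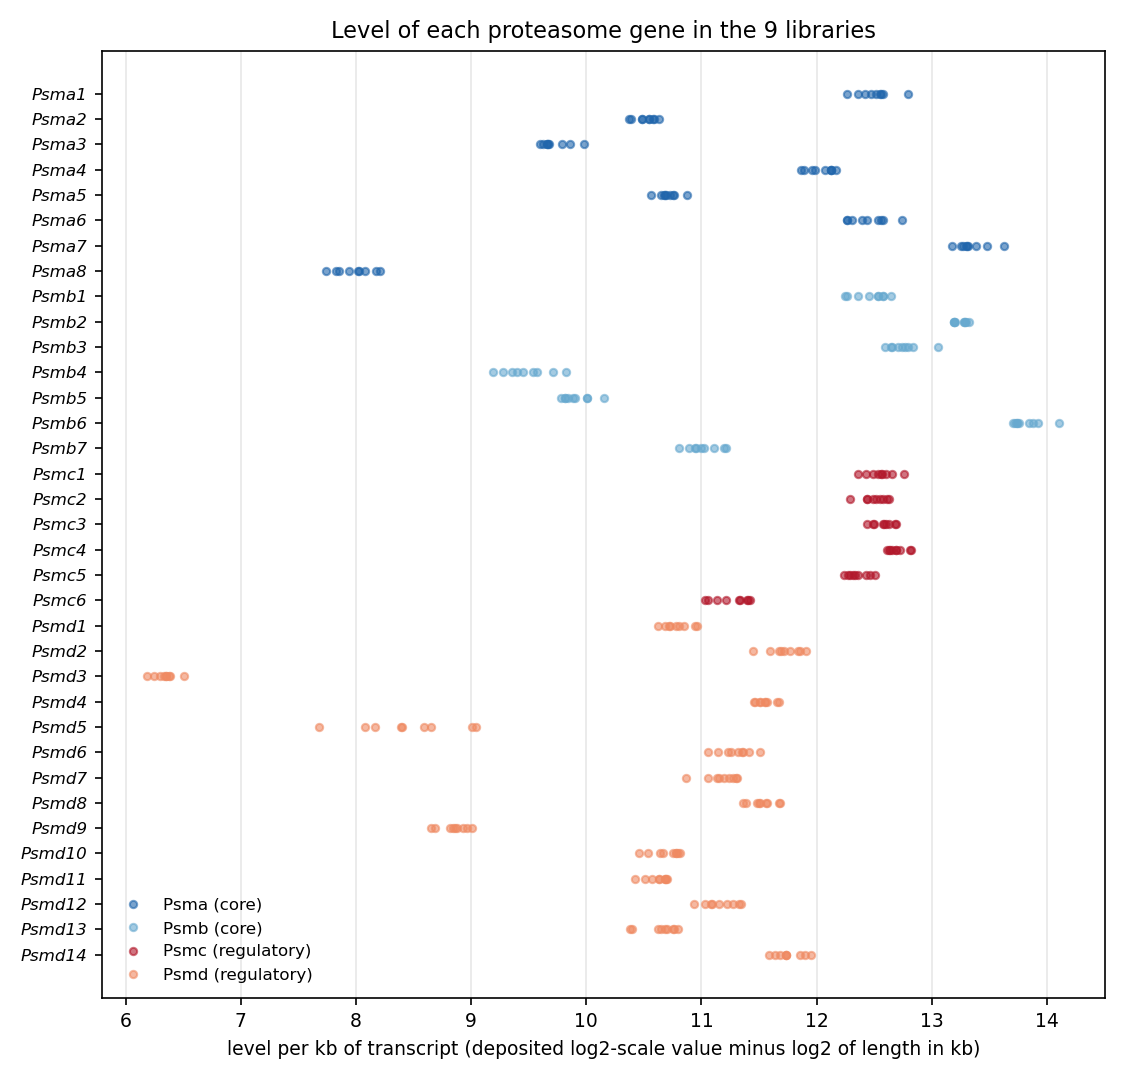
Level of each of the 35 proteasome genes (y axis, coloured by family) as the log2-scale value minus log2 of transcript length in kb (x axis), with 1 point per library. The means of the 6 Psmc genes lie between 11.26 and 12.70, while those of Psmd3 (6.34), Psma8 (7.99) and Psmd5 (8.45) are the lowest.

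Pseudogenes of catalytic subunits are a possible source of shared reads. Psmb5-ps lay at 0.19 to 0.20 and Psmb6-ps at -0.57 to -0.55 in the 9 libraries, both below the filter, and Psmb6-ps2 lay at 4.53 to 4.58, against 13.38 or more for Psmb6. Exons of 9 members overlap exons of another gene in the annotation. The overlap was 1849 bp with the opposite-strand gene Gm26745 for Psmd9, 405 bp with Nek6 for Psmb7 and 342 bp with Sirt3 for Psmd13. Psmd1 shares 301 bp with Gm21972 on the same strand and 252 bp with Htr2b on the other. Whether reads were counted by strand is not stated in the labels, so the values of the 9 genes are uncertain to that extent, and for Psmd1 and Psmb5, which overlaps a miRNA gene on its own strand, counting by strand would not separate the reads.

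Old against young differences were small, positive throughout the core, mixed among Psmd genes and near 0 for most Psmc genes. No single gene passed the test. All 15 core genes had a difference above 0, with a median of 0.17 and a range from 0.01 (Psmb7) to 0.29 (Psma1). Of the 20 regulatory genes, 16 lay above 0, with a median of 0.03. By family the medians were 0.15 for Psma, 0.17 for Psmb, 0.022 for Psmc and 0.13 for Psmd. The Psmd median, with 10 of 14 genes above 0, thus lay near those of the core families. Over all genes tested, 47.4% lay above 0 and the median was -0.0086. None of the 35 genes was called by limma at an adjusted p under 0.05, with Benjamini-Hochberg adjustment over 14956 genes, while 2.00% of all genes tested were called. At an unadjusted p under 0.05 there were 7 genes higher (Psma1, Psma4, Psma6, Psmb1, Psmb4, Psmd5 and Psmd8) and 0 lower, beside 9.07% and 7.69% of all genes. Old and young libraries did not overlap for 11 genes with old higher, beside 12.2% of all genes in that direction, and for 12 genes in either direction, Psmd13 being lower, beside 24.5%. The 95% intervals are for each gene alone and hold only on the scale of the deposited values. Among core genes the highest upper bound was 0.57 (Psmb4), and among regulatory genes without Psmd5 it was 0.43 (Psmd10). These bounds do not limit the difference on another scale: the authors' deposited fold change for Psmb4 was 0.47 ± 0.18 (SE), against 0.29 in limma. Fewer cells of a type and less RNA per cell cannot be told apart in these bulk samples.

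**Figure D2:**
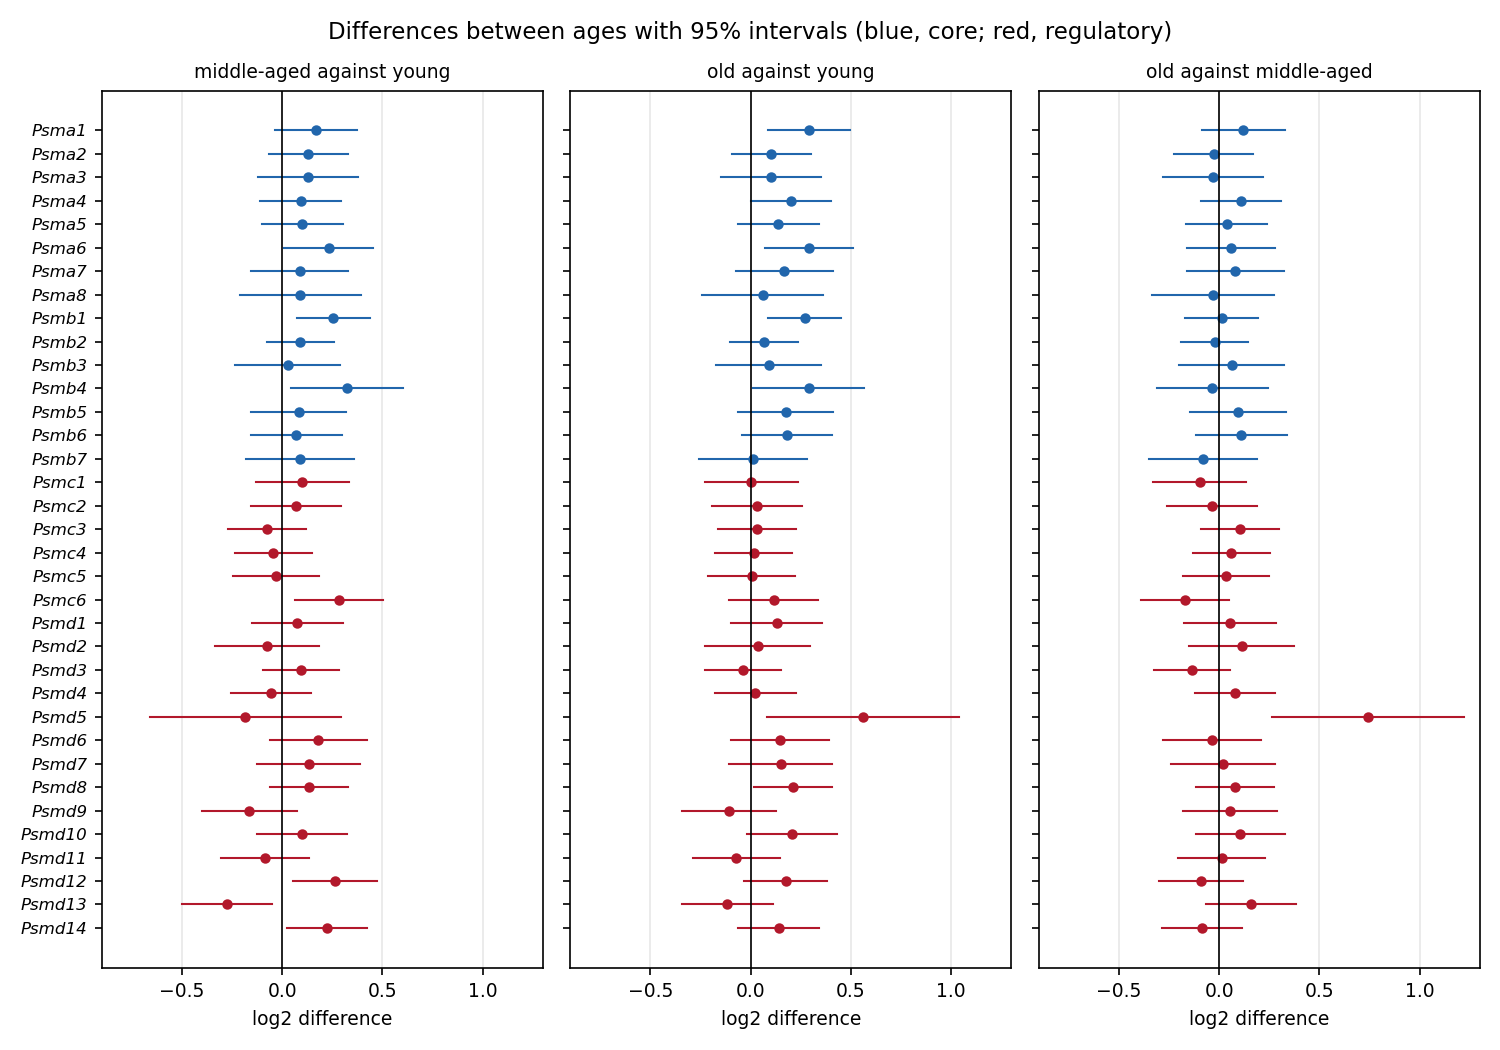
Log2 difference (x axis; points, estimates; bars, 95% confidence intervals of the limma fit) of each proteasome gene (y axis) in 1 panel per pair of ages, core genes in blue and regulatory genes in red. All 15 core genes lie above 0 in old against young and in middle-aged against young, and 9 of 15 do in old against middle-aged.

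Middle-aged against young libraries gave the same number of core genes above 0, which is no second line of evidence since the young libraries are shared. All 15 core genes lay above 0, with a median of 0.09, and 11 of 20 regulatory genes did, with a median of 0.07; all genes tested had 49.6% above 0. None of the 35 was called, while 0.114% of all genes tested were called. Psma6, Psmb1, Psmb4, Psmc6, Psmd12 and Psmd14 were higher and Psmd13 lower at an unadjusted p under 0.05, beside 6.20% and 5.15% of all genes. Middle-aged and young libraries did not overlap for 10 genes with middle-aged higher, beside 11.6% of all genes, and for 11 in either direction, Psmd13 being lower, beside 21.6%.

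Between 15 and 23 months the differences centred near 0. In old against middle-aged libraries 9 of 15 core genes lay above 0 (median 0.04) and 13 of 20 regulatory genes (median 0.04), with 48.5% of all genes. None of the 35 was called, beside 0.174% of all genes tested. At an unadjusted p under 0.05, 1 gene was higher (Psmd5) and 0 were lower, beside 5.42% and 4.76% of all genes. Old libraries lay wholly above middle-aged ones for 0 members, beside 6.47% of all genes, and the groups were apart in either direction for 1, Psmc6 with old lower, beside 12.9%. The lowest adjusted p of a member was 0.132 for old against young (Psmb1), 0.274 for middle-aged against young (Psmb1) and 0.287 for old against middle-aged (Psmd5). In the limma F test over the 3 ages the lowest was 0.194, with 6 genes at an unadjusted p under 0.05 (Psma1, Psma6, Psmb1, Psmc6, Psmd5 and Psmd12), while 15.3% of all genes reached that. No member was called by the F test, beside 0.836% of all genes tested, nor by the test of the later step (15 to 23 months) against the earlier one (6 to 15 months), which called 0 of all genes. In that step test Psmc6, Psmd5 and Psmd13 had an unadjusted p under 0.05, beside 7.90% of all genes. With limma's library weights 2 members were called in old against young, Psmb1 (adjusted p = 0.0209) and Psmd8 (adjusted p = 0.0267), and 1609 genes in all, 10.8% of those tested.

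The core genes were low in every young library, while the regulatory genes were not. Taking for each gene its deviation from its own mean over the 9 libraries, the mean over core genes was -0.12, -0.066 and -0.11 in the young libraries, 0.0096, 0.10 and -0.012 in the middle-aged ones and 0.048, -0.016 and 0.16 in the old ones. Each young library lay below each of the 6 later ones, and in the third young library 0 of 15 core genes were above their own mean. The regulatory genes had -0.12, 0.037 and -0.035 in young, 0.031, -0.0090 and -0.037 in middle-aged and 0.071, 0.015 and 0.045 in old libraries, so their ages overlapped. The difference of core minus regulatory was -0.059 ± 0.052 (SD, n = 3) in young, 0.039 ± 0.068 in middle-aged and 0.021 ± 0.083 in old libraries, and single libraries of all ages overlapped. No test of core against regulatory genes was made, because the genes were chosen with results known and are not replicates.

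**Figure D3:**
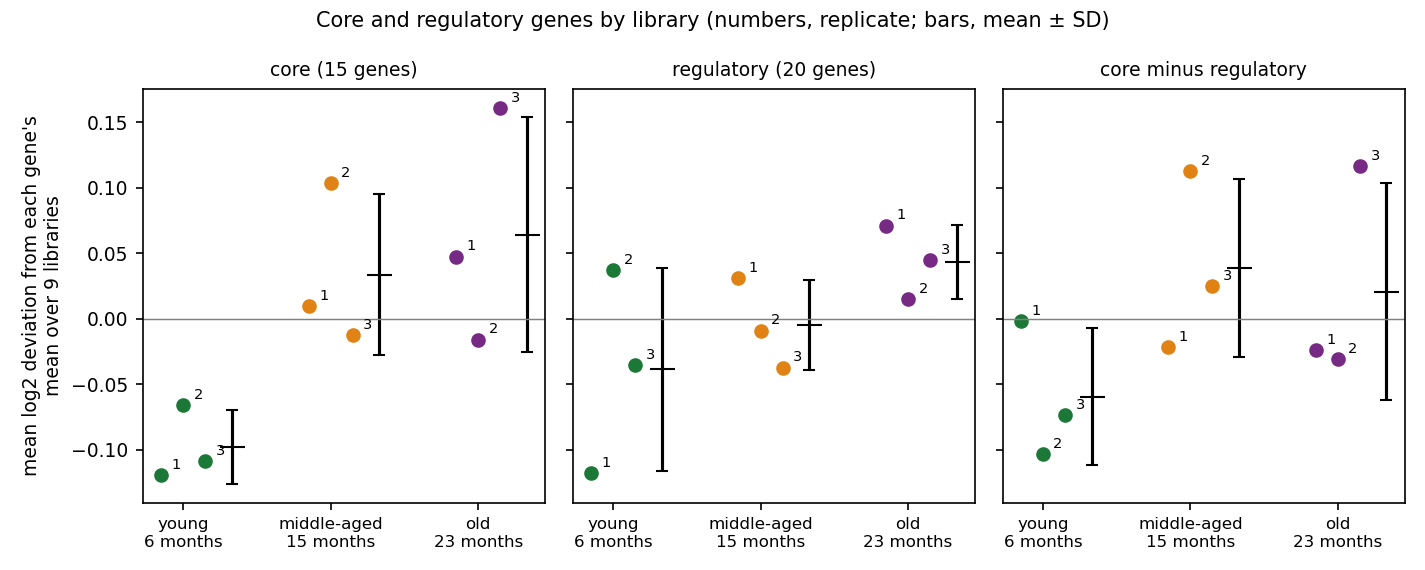
Mean log2 deviation from each gene's own mean (y axis) per library (points, numbered by replicate) of the 15 core genes, the 20 regulatory genes and core minus regulatory, by age (x axis); bars are mean ± SD. For core genes the 3 young libraries, from -0.12 to -0.066, lie below the 6 later ones; regulatory values and core minus regulatory overlap between ages.

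Other values moved with the core genes between libraries. The 76 ribosomal protein genes, which are short and abundant, had mean deviations of -0.10, -0.19 and -0.27 in young, 0.067, 0.077 and 0.0030 in middle-aged and 0.16, -0.0052 and 0.26 in old libraries, with each young library below each later one. Core transcripts were short: their median length was 1165 bp, against 1710.5 bp for regulatory genes and 2733 bp for all genes tested. Over 10 bins of all genes by length, the median old against young difference went from 0.032 in the shortest (median 611 bp) to -0.066 in the longest (median 7726 bp). The slope of a library's deviations on log2 transcript length was 0.030, 0.0077 and 0.031 in young, -0.011, -0.017 and 0.016 in middle-aged and -0.023, 0.0052 and -0.040 in old libraries. With that trend removed, a step added after the data were seen, the old against young medians were 0.10 for core and 0.028 for regulatory genes, with 13 of 15 and 11 of 20 above 0. With length and GC trends removed they were 0.10 and 0.044. Without old replicate 3 the core median was 0.096 and 12 of 15 genes lay above 0: the old against young difference of 7 core genes shrank by over 1.5 times or turned (Psma5 to 0.082, Psma7 to 0.068, Psmb5 to 0.096, Psmb6 to 0.088, Psma3 to -0.018, Psmb3 to -0.033 and Psmb7 to -0.10), and that of Psma8 grew to 0.19. Psma1, Psma6, Psmb1 and Psmb4 had 0.21, 0.21, 0.22 and 0.35 without it. Without it the core median for old against middle-aged was -0.019. Of the 20 regulatory genes, 14 lay above 0 in old against young without old replicate 3. The difference of 7 regulatory genes shrank by over 1.5 times or turned, 2 of them turning, and that of 4 grew by over 1.5 times. The regulatory median for old against young was -0.019 without young replicate 1, with 9 of 20 above 0, and 0.095 without young replicate 2. The part of RNA quality, of the microglia and macrophage marker levels above and of transcript length in the core values was not tested.

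**Figure D4:**
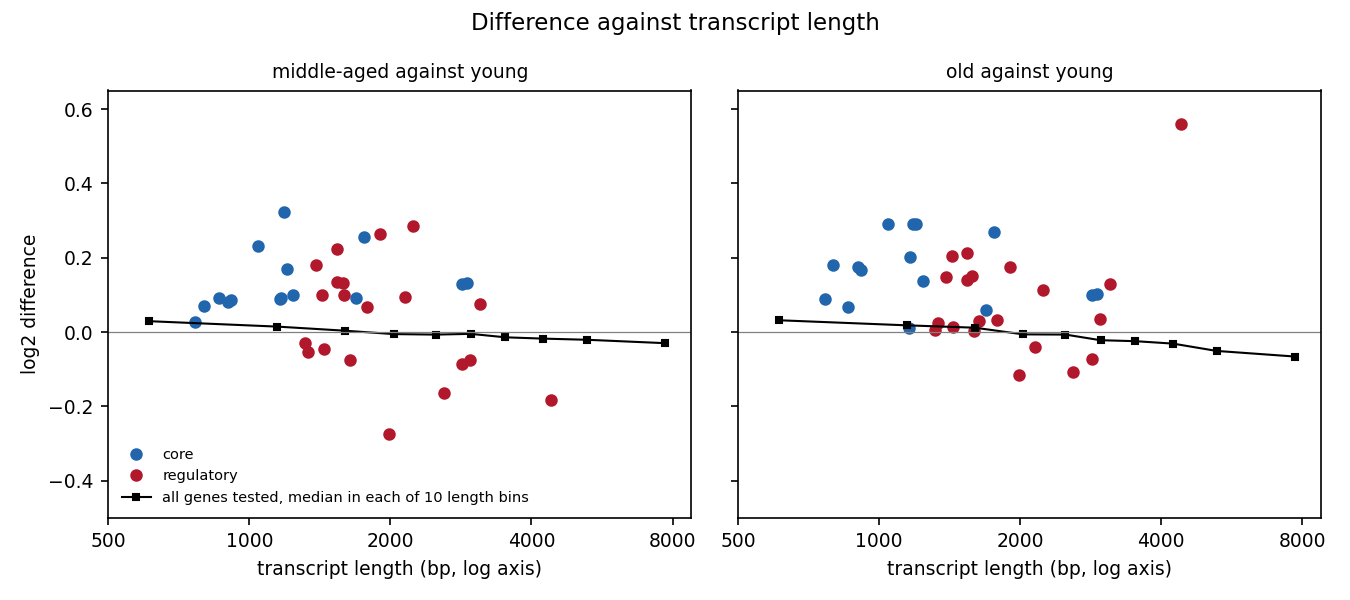
Log2 difference (y axis) against transcript length in bp (x axis, log scale) for middle-aged against young (left) and old against young (right); points are core (blue) and regulatory (red) genes, and the line joins the medians of all genes tested in 10 bins by length. In old against young the line goes from 0.032 to -0.066, and most core genes sit at its short end and above it.

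Among alpha subunit genes, Psma1 had log2-scale values of 12.53, 12.68 and 12.62 in young, 12.82, 12.78 and 12.74 in middle-aged and 12.81, 12.84 and 13.06 in old libraries. All 6 later libraries lay above all young ones, and old replicate 3 was the highest. The old against young difference was 0.29 ± 0.09 (SE), with an adjusted p of 0.152 (limma). Psma1 lies on chromosome 7 at 114264606 to 114276118 (GRCm38, minus strand) with 10 exons. Psma6, another alpha subunit gene, was chosen after its values were seen. It had 12.32, 12.32 and 12.37 in young, 12.62, 12.63 and 12.45 in middle-aged and 12.59, 12.49 and 12.80 in old libraries. Its difference was 0.29 ± 0.10 for old against young (adjusted p = 0.177, limma) and 0.23 ± 0.10 for middle-aged against young, and the young libraries lay below the rest. Psma4, whose product helps close the gate of the barrel, had 12.09, 12.18 and 12.21 in young, 12.34, 12.30 and 12.11 in middle-aged and 12.35, 12.34 and 12.39 in old libraries. Old libraries of Psma4 lay above the young ones, by 0.20 ± 0.09, while middle-aged and young ones overlapped. Psma7 had 13.05, 13.17 and 13.18 in young, 13.18, 13.35 and 13.12 in middle-aged and 13.26, 13.14 and 13.50 in old libraries, with all ages overlapping.

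Psma8, the testis-type alpha subunit gene, was read at 8.77, 8.70 and 8.61 in young, 8.59, 8.84 and 8.93 in middle-aged and 8.79, 8.97 and 8.50 in old libraries. It had the lowest level per kb in the core and an old against young difference of 0.06 ± 0.14, with ages overlapping. The remaining Psma genes, Psma2, Psma3 and Psma5, had old against young differences of 0.10, 0.10 and 0.14.

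Among beta subunit genes the lowest adjusted p belonged to Psmb1, a non-catalytic subunit gene on chromosome 17 at 15475021 to 15499751 (GRCm38). It had 13.06, 13.17 and 13.08 in young, 13.35, 13.39 and 13.34 in middle-aged and 13.39, 13.27 and 13.46 in old libraries. The 6 later libraries lay above the young ones and shared a range. The difference was 0.27 ± 0.08 for old against young (adjusted p = 0.132, limma) and 0.26 ± 0.08 for middle-aged against young (adjusted p = 0.274, limma). Psmb4, also non-catalytic, had 9.52, 9.60 and 9.43 in young, 9.64, 10.06 and 9.81 in middle-aged and 9.78, 9.95 and 9.69 in old libraries. Again no young library reached a later one, with differences of 0.29 ± 0.13 for old and 0.32 ± 0.13 for middle-aged against young.

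For the 3 catalytic subunit genes old and young libraries overlapped. Psmb5 had 9.63, 9.73 and 9.66 in young, 9.75, 9.85 and 9.66 in middle-aged and 9.850, 9.686 and 10.0035 in old libraries. Old and young overlapped, with a difference of 0.17 (95% interval -0.064 to 0.41), or 0.096 without old replicate 3. Psmb6 had 13.40, 13.43 and 13.42 in young, 13.52, 13.56 and 13.38 in middle-aged and 13.59, 13.41 and 13.78 in old libraries. Its old replicate 2 lay among the young values, and the difference was 0.18 (-0.046 to 0.41), or 0.088 without old replicate 3. Psmb7 had 11.32, 11.16 and 11.11 in young, 11.21, 11.41 and 11.23 in middle-aged and 11.17, 11.02 and 11.43 in old libraries. Its difference was 0.011 (-0.26 to 0.28), or -0.10 without old replicate 3, with overlapping ages. Psmb2 was the tightest member over the replicates, with a residual SD of 0.0387, and its middle-aged libraries (13.08, 13.06 and 13.07) lay above the young ones (12.98, 12.97 and 12.98), while old replicate 2 (12.97) did not. Psmb3 had an old against young difference of 0.09. The median residual SD was 0.11 in the core, 0.10 in the regulatory particle and 0.13 over all genes tested.

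**Figure D5:**
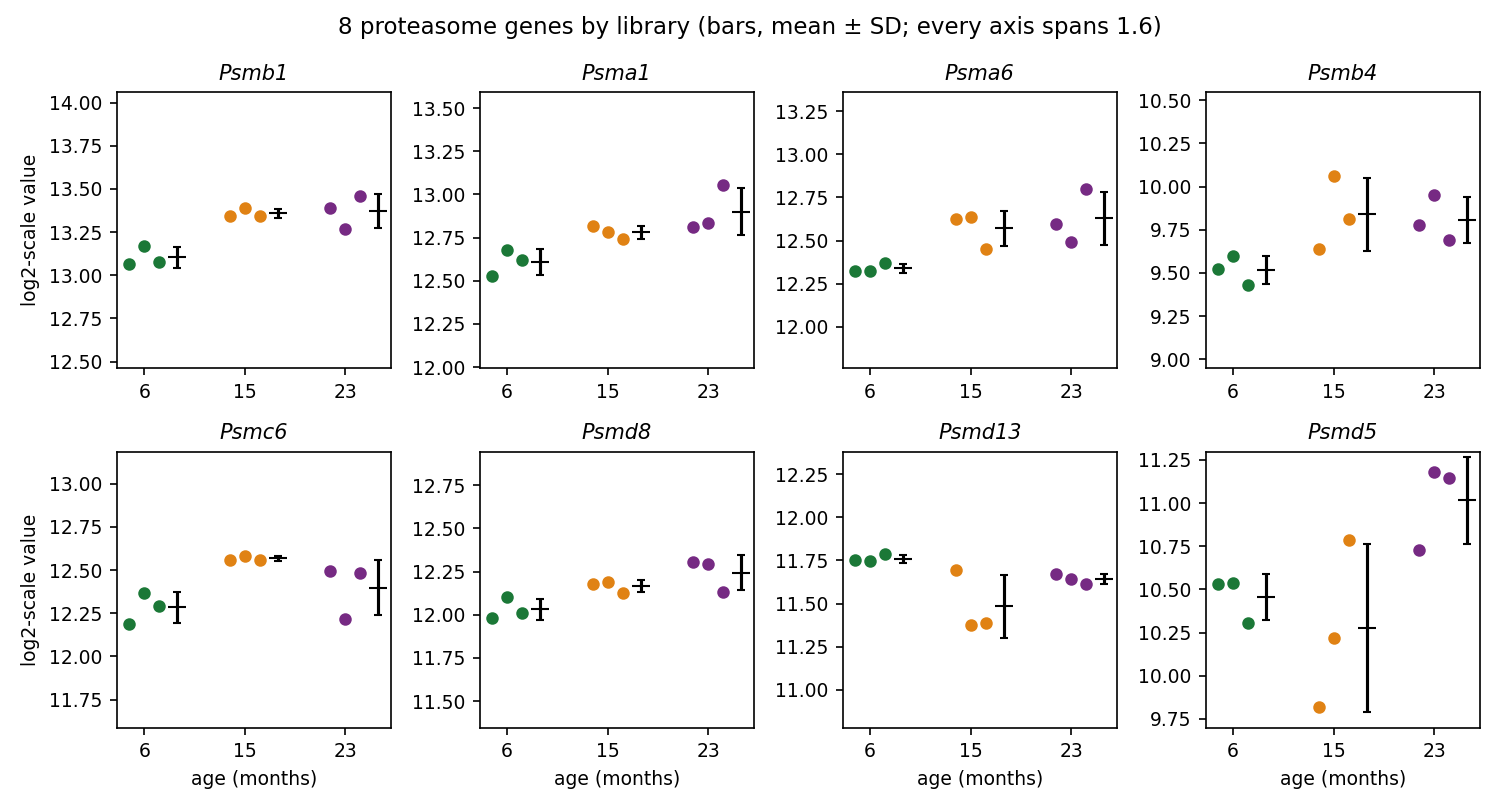
Values of 8 proteasome genes in each library (points; bars, mean ± SD), with age in months on the x axis and the log2-scale value on the y axis, each axis of the same span. Psmb1, Psma1 and Psma6 have young libraries below all later ones; Psmd5 has a spread of 1.36 over the 9 libraries.

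In the ATPase ring, 6 of 6 Psmc genes had an old against young difference above 0, with a median of 0.022; the lowest was 0.0033 (Psmc1) and the highest 0.11 (Psmc6). Psmc6, which lies on chromosome 14 at 45329788 to 45349705, had 12.19, 12.37 and 12.29 in young, 12.56, 12.58 and 12.56 in middle-aged and 12.49, 12.21 and 12.49 in old libraries. Its middle-aged libraries were above all the others. The difference was 0.28 ± 0.10 for middle-aged against young, -0.17 ± 0.10 for old against middle-aged, and the later step minus the earlier one was -0.45 (unadjusted p = 0.0238, adjusted p = 0.549, limma). Psmc4 had 13.14, 13.34 and 13.21 in young, 13.21, 13.16 and 13.18 in middle-aged and 13.33, 13.16 and 13.25 in old libraries, all overlapping.

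Among the non-ATPase genes, Psmd5 had the widest spread of all members, a range of 1.36 over the 9 libraries. It lies on chromosome 2 at 34849734 to 34874968. Its values were 10.53, 10.54 and 10.30 in young, 9.82, 10.22 and 10.79 in middle-aged and 10.73, 11.18 and 11.15 in old libraries. Old libraries lay above the young ones, and the middle-aged ones spread from below both to within the old range. The difference was 0.56 ± 0.22 for old against young (95% interval 0.081 to 1.04, adjusted p = 0.227, limma) and 0.74 ± 0.22 for old against middle-aged (unadjusted p = 0.00586, adjusted p = 0.287, limma). The authors' deposited fold changes for Psmd5 were 0.71 for old against young, 0.46 for old against middle-aged and -0.095 for middle-aged against young. For that last pair limma gave -0.18.

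Genes of the lid, the part of the cap that removes ubiquitin chains, took several directions. Psmd8 had 11.98, 12.10 and 12.01 in young, 12.18, 12.19 and 12.12 in middle-aged and 12.31, 12.30 and 12.13 in old libraries, with young libraries below the rest and an old against young difference of 0.21 ± 0.09. Psmd12 had 11.87, 12.01 and 11.96 in young, 12.21, 12.27 and 12.15 in middle-aged and 12.02, 12.08 and 12.26 in old libraries, and its middle-aged against young difference was 0.26 ± 0.09. Psmd14 had 12.31, 12.21 and 12.26 in young, 12.52, 12.58 and 12.36 in middle-aged and 12.36, 12.36 and 12.48 in old libraries, again with young lowest. Psmd13, chosen after its values were seen, went the other way: 11.75, 11.75 and 11.79 in young, 11.70, 11.37 and 11.39 in middle-aged and 11.67, 11.64 and 11.62 in old libraries. Its young libraries were the highest, with a middle-aged against young difference of -0.28 ± 0.10 (adjusted p = 0.33, limma). Psmd3 had 7.44, 7.35 and 7.48 in young, 7.45, 7.61 and 7.49 in middle-aged and 7.46, 7.29 and 7.40 in old libraries, with overlap throughout. The assembly chaperone genes Psmd9 and Psmd10 differed by -0.11 and 0.21 in old against young.

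The authors' deposited tables called 3 of the 35 genes. In the old against young table Psmb1 rose with a log2 fold change of 0.34 (adjusted p = 0.0448) and Psmd5 rose with 0.71 (adjusted p = 0.00611), beside 4.72% of genes called higher there and 7.62% in all. In the middle-aged against young table Psmb1 rose with 0.32 (adjusted p = 0.0221) and Psmc6 rose with 0.36 (adjusted p = 0.0264), beside 3.26% of genes called higher and 5.78% in all. The old against middle-aged table called 0 of 35, beside 0.859% of genes called higher and 1.32% in all. The authors' deposited fold changes had medians of 0.21 for core and 0.036 for regulatory genes in old against young. The limma medians on the log2-scale values were 0.17 and 0.034. The authors' fold changes and the limma differences need not share a scale, and for single genes they differed in both directions. For Psmb4 in old against young they were 0.47 and 0.29, and for Psmd5 in old against middle-aged 0.46 and 0.74. The authors' tables and the limma fit share the same libraries, so they are not independent.

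Promoter sequences of the members were compared because proteasome genes are known to share control elements, among them the antioxidant response element bound by NRF1. RefSeq windows of 300 bases (250 before and 50 after the start, build GRCm38.p6) were at hand for 28 of 35 genes; those of Psma8, Psmb1, Psmb2, Psmb7, Psmc3, Psmd3 and Psmd7 were not used here. Matches were counted per gene, in any window of that gene. The letters TGACNNNGC, on either strand, occurred for 5 of 28 members (17.9%) and for 14% of all 27025 genes with a window. CCAAT occurred for 39.3% of these members and 41.1% of all genes, GGGCGG for 64.3% and 38.2%, and CCGGAA for 53.6% and 16.7%. CCGGAA was found for 4 of 11 core and 11 of 17 regulatory genes. A match is a description of letters and not a site. The stretches that hold TGACNNNGC in the windows of those 5 genes are given 5′ to 3′ on the gene's strand. Capitals mark TGACNNNGC or its reverse complement. They lie at chr14:54618008-54618068, minus strand (Psmb5), chr11:70525296-70525356, plus strand (Psmb6), chr14:45329574-45329634, plus strand (Psmc6), chr11:107479278-107479338, plus strand (Psmd12) and chr5:123228129-123228189, plus strand (Psmd9). In Psmd9 the capitals overlap a GGGCGG match on the other strand.
Psmb5: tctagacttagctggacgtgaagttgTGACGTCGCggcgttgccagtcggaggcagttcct
Psmb6: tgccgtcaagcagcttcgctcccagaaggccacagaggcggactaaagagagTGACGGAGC
Psmc6: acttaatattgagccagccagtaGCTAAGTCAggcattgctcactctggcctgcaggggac
Psmd12: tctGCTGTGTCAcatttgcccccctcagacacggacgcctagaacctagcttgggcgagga
Psmd9: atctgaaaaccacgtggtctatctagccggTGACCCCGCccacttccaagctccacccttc

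None of these 5 genes was called by limma, and in old against young Psmb5 differed by 0.17, Psmb6 by 0.18, Psmc6 by 0.11, Psmd12 by 0.17 and Psmd9 by -0.11. For Psma1 and Psmd5, which had the largest old against young difference of their class, the 150 bases before the start follow, at chr7:114276117-114276266, minus strand and chr2:34870963-34871112, minus strand. Capitals mark CCAAT or GGGCGG on either strand, and neither stretch holds CCGGAA.
Psma1: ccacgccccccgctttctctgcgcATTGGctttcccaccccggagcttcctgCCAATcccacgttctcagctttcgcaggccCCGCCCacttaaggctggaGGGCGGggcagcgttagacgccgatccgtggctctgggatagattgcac
Psmd5: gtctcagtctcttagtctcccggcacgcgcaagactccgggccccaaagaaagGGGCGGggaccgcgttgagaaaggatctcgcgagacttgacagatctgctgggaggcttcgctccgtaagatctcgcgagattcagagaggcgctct

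Genes that work with the proteasome were taken as lists. No gene of any of the 7 lists was called in any pair of ages (limma, adjusted p), against 2.00% of all genes in old against young. At an unadjusted p under 0.05 in old against young there were 1 of 3 alternative subunits, 2 of 5 activators and inhibitors, 2 of 8 other regulatory subunits and bound enzymes and 2 of 13 regulators, all higher, beside 9.07% of all genes. In the same comparison 2 of 9 assembly factors were higher and 1 lower, and 0 of 11 shuttle genes passed. With limma's library weights Psmb8, Psme1, Psme2 and Sem1 were called in old against young, at adjusted p from 0.0152 (Psme1) to 0.0183 (Psme2), in a fit that called 10.8% of all genes. Of the alternative subunits, 3 of 5 were tested and 3 lay above 0 in old against young. Psmb8, the immunoproteasome counterpart of Psmb5, had 9.83, 9.77 and 9.71 in young, 10.13, 10.06 and 9.86 in middle-aged and 10.11, 10.04 and 10.23 in old libraries, with young lowest and a difference of 0.35 ± 0.11 (adjusted p = 0.12, limma). Psmb9, the counterpart of Psmb6, differed by 0.05 ± 0.10. The activator genes Psme1 and Psme2, whose products open the barrel without ubiquitin, differed by 0.31 ± 0.09 and 0.33 ± 0.10, and 2 of the 5 genes tested of that list of 6 lay above 0. Of the assembly factors 6 of 9 tested lay above 0, with a median of 0.09.

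Among other regulatory subunits and bound enzymes 4 of 8 lay above 0, and Sem1, a small subunit of the cap, had 12.17, 12.09 and 12.07 in young, 12.40, 12.64 and 12.40 in middle-aged and 12.44, 12.38 and 12.60 in old libraries. All later libraries lay above the young ones, by 0.36 ± 0.10 in old (adjusted p = 0.0982, limma) and 0.37 ± 0.10 in middle-aged. With library weights Sem1 was also called in middle-aged against young (0.40, adjusted p = 0.0417, limma), where that fit called 2.08% of all genes. Of 11 shuttle genes 5 lay above 0 in old against young, and of 13 regulators of proteasome genes 5. Ubqln2, a ubiquitin shuttle gene, differed by 0.16 ± 0.09. Nfyb, which encodes a subunit of the CCAAT-binding factor, differed by 0.30 ± 0.12. In the authors' deposited table for old against young Psmb8 (0.57), Psme1 (0.40), Psme2 (0.47) and Sem1 (0.47) rose. In the authors' deposited table for middle-aged against young Sem1 (0.46) and the shuttle gene Ubqln4 (0.57) rose and Faf2 fell by 0.33.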

How the data were processed

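RNA sequencing values of 9 libraries (3 per age, each RNA pooled from 3 mice) were used. STAR 2.5.3, cutadapt 1.13, DESeq2 1.16.1, CASAVA and the build mm10 are named, without roles, in the submitters' processing notes; the read counter is not stated. The deposited log2 values range between -2.14 and 20.05 over genes and libraries; how the authors transformed them is not stated. The authors' deposited comparison tables hold 1 line per gene: the log2 fold change with its error, the p-value before and after adjustment, a test score, and the base mean, a signal averaged over libraries, per the file headers. Read depth is unknown, so no interval on counts was made.

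Genes with a value of at least 3.32 in 3 libraries (14956) were fitted with limma 3.58.1 in R 4.3.3, the 3 ages as groups, with a variance trend, moderated tests (two-sided) and p-values adjusted by Benjamini-Hochberg over all genes tested, at a threshold of 0.05. Residual degrees of freedom were 6 and prior ones 4.57. An exact permutation test of 3 against 3 cannot go below 0.1. The fit was tested on simulated data. Members, lists and tests were chosen with earlier results of these data known. Named members were the 2 core and 2 regulatory genes with the smallest p per pair of ages, the catalytic genes, the highest and lowest per length of each family and the widest range; partners were the smallest p per list and those called. A partner chosen by this rule is left out of the text. Psme1 and Psmb9 were named after their values were seen, as were Psma6, Psmd13, Psmb2 and the other members given with a difference only. Transcript lengths and coordinates come from GENCODE M21 on GRCm38, in which all 35 members and 99.8% of tested symbols were found. Alternatives covered filters, a pseudocount of 1, scaling, variance models, library weights, a replicate block, left-out libraries and members, and, added after the data were seen, length and GC trends and leaving out Psma8. Correlations between the deviations of same-numbered libraries ran from -0.242 to 0.234. With 3 libraries per age they cannot settle whether the numbers mark pairs. Figures were drawn with matplotlib 3.10.9.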

Additional observations from a re-analysis of the deposited data

How the results depend on the processing

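Depth is unknown and 3 pools per age limit every comparison. The number of members called stayed at 0 in each pair of ages, the step test and the F test under the alternatives run, leaving out each library included, except that library weights called 2 members in old against young and 1 in the F test. With the replicate block 0 members were called, and 185, 11 and 14 genes in all for old against young, middle-aged against young and old against middle-aged, against 299, 17 and 26 without it; the block changed no call of a member. Leaving out 1 library each, the regulatory median for middle-aged against young ran from -0.0004 (without young replicate 1) to 0.10 (without middle-aged replicate 3), the core median for old against young from 0.096 (without old replicate 3) to 0.21 (without old replicate 2), and the regulatory one from -0.019 (without young replicate 1) to 0.095 (without young replicate 2). For old against middle-aged the core median ran from -0.019 (without old replicate 3) to 0.079 (without middle-aged replicate 2) and the regulatory one from 0.013 (without middle-aged replicate 3) to 0.074 (without middle-aged replicate 1). The counts of all genes called moved more: for old against young they were 170 with no filter, 366 with a stricter one, 153 with only those ages fitted and 1609 with library weights, and 83 to 322 when 1 library was left out; for middle-aged against young they ran from 4 to 311 and for old against middle-aged from 0 to 62 over all alternatives. The alternative without Psmb10 was not run, because that gene was not analysed here.

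Among the genes given by name, the differences that turned direction were all uncalled, the largest being Psmd5 for middle-aged against young (-0.18), and the cause was not tested. With library weights Psmb7 for old against young was -0.0029 and Psma8 for old against middle-aged 0.038. With the length trend removed, old against young gave -0.047 for Psmb7 and -0.028 for Psmc4, and old against middle-aged -0.0014 for Psmb1; with length and GC trends removed these were -0.030 for Psmb7 and -0.020 for Psmc4, and old against middle-aged gave 0.024 for Sem1 and 0.012 for Nfyb. Leaving out 1 library each, old against young ran from -0.032 to 0.070 for Psmc4, -0.10 to 0.10 for Psmb7, -0.049 to 0.19 for Psma8 and -0.078 to 0.0056 for Psmd3. Middle-aged against young ran from -0.091 to 0.011 for Psmc4, -0.44 to 0.044 for Psmd5 and -0.16 to 0.0040 for Psmb9. Old against middle-aged ran from -0.16 to 0.050 for Nfyb, -0.13 to 0.079 for Psmb4, -0.070 to 0.072 for Sem1, -0.14 to 0.095 for Psma8, -0.19 to 0.014 for Psmb7, -0.026 to 0.13 for Psma6, -0.019 to 0.16 for Psma7 and -0.031 to 0.065 for Psmb1.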
